A study of Caenorhabditis elegans with 8 samples.

Results

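The *col* genes of *C. elegans* encode collagens, most of them secreted into the cuticle. Members were taken as the genes whose name begins with *col-* in the annotated gene table of the study, and their counts were read by gene identifier. The rule gave 149 genes of the 46926 in the count table. A further 7 *col* genes of the annotation lay outside the rule and held between 0 and 6 counts over all libraries. All 149 members are annotated as protein coding.

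Polyadenylated RNA of whole animals was measured in 8 libraries. The 4 libraries labelled Control came from N2, the wild-type strain, and the 4 labelled smrd1Null came from animals with a deletion of *smrd-1*, the homolog of the chromatin remodeler SMARCAD1. The *smrd-1* null strain of the paper, *Δ#1*, carries a CRISPR-Cas9 deletion of exons 1 to 6. It is 1 allele, and no group carried a tau transgene. All animals were grown at the same temperature and on the same bacterial food. The extraction protocol gives the L4 larval stage for all of them, while the design text of the series describes adults. The sources do not say whether the replicates came from separate cultures, so the p-values measure the spread between these libraries, which may be technical.

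The cuticle is the collagen-rich coat of the worm. The epidermis lays down a new one at the end of embryogenesis and before each molt, and the adult cuticle is made during the fourth larval stage. Cuticle collagen genes are transcribed in waves within each molting cycle, early, middle or late, and some are used in a single stage only.

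The targeted gene had higher counts in the libraries labelled smrd1Null. *smrd-1* held 3638, 2997, 3876 and 4073 counts in the libraries labelled Control and 6369, 6252, 6874 and 6330 in those labelled smrd1Null. Its log2 fold change was 0.83 (SE 0.0813, adjusted p = 0.0089, edgeR). A count over the whole gene cannot separate the deleted exons from the remaining ones, so the labels could not be checked in this way and the groups are called by their labels throughout. Total counts lay between 74704022 and 78008833 per library. Replicates 3 and 4 differed from replicates 1 and 2 in both labelled groups. That division was first seen in the values of these libraries, no label gives it, and differences along it are therefore described without a test.

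Markers of several other tissues moved with the libraries as well. The summed level of 6 yolk protein genes was 5639, 2249, 6596 and 3131 CPM (counts per 1000000 counts of a library, scaled by TMM) in Control replicates 1 to 4. It was 6583, 8549, 18352 and 12312 CPM in the libraries labelled *smrd-1* null. The yolk genes thus also differed by labelled group, with a median log2 fold change of 1.60. All 6 were higher in *smrd-1* null at an unadjusted p under 0.05 in edgeR, as were 3.9% of all genes. After adjustment edgeR called 0 of them, and DESeq2 called 3, where 0.992% of all genes were called. In each labelled group, the mean log2 CPM of replicates 3-4 was above that of 1-2 for all 7 oocyte and all 12 sperm markers. It was below for all 4 muscle markers. Each direction held in both groups for 36.8% of all genes. All 7 oocyte markers were also higher in *smrd-1* null than in Control, where 48.6% of all genes were. Their median log2 fold change was 0.69, and 0.68 between replicate sets. An unadjusted p under 0.05 (edgeR) was found for 3 of them, beside 3.9% of all genes, and 0 were called. The 7 oocyte markers summed to between 312 and 671 CPM in Control and to between 495 and 1159 CPM in *smrd-1* null libraries. Muscle markers summed to between 6901 and 10575 CPM in Control and to between 5456 and 10413 CPM in *smrd-1* null. All 5 neuron markers were lower in replicates 3-4, with a median log2 difference of -0.37. The median was 0.07 over 5 germline markers, 4 of them higher and 1 lower. It was -0.30 over 3 intestine markers, 1 of them higher and 2 lower. The part of these shifts in the collagen results was not tested. In whole animals, fewer cells of a type and less RNA per cell cannot be told apart.

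The members lie on all 6 chromosomes, with 39 on chromosome IV, 30 on V, 26 on X, 24 on II, 18 on I and 12 on III. Most are short genes with few exons. The counted length ranged from 724 to 2960 bases with a median of 1020, 12 members have 1 exon and 71 have 2. In 48 members an exon shares bases with another gene, usually on the opposite strand, and the counting did not use strand. Among the members described below this concerns *col-2*, *col-8*, *col-90*, *col-99*, *col-124*, *col-125* and *col-143*, and also *col-142*, *col-151* and *col-171*. For example, *col-99* overlaps *daf-1*, a TGF-β receptor gene, and *col-124* overlaps *qns-1*. The count command shows no option to count reads that mapped to several places, and how far this touched members of similar sequence was not measured here.

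Collagen RNA was abundant. The 149 members together took 3.2% to 5.48% of all counts in a library. Their summed level was 38595, 44920, 35146 and 30892 CPM in Control replicates 1 to 4, and 35180, 33466, 53282 and 50288 CPM in the *smrd-1* null libraries. The means were 37388 ± 5928 CPM in Control and 43054 ± 10180 CPM in *smrd-1* null (SD, n = 4 each), and the groups overlapped. The 2 highest sums were those of *smrd-1* null replicates 3 and 4, while replicates 1 and 2 of that group lay within the range of Control.

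A few members carried much of this RNA. The 10 highest held 28.9% of the summed level and the 20 highest 48.5%. A mean level above 100 CPM was seen in 75 members and above 500 CPM in 34. Per kilobase of counted length, *col-73* was highest at 2178 CPM per kb, followed by *col-125* at 1403, *col-166* at 1347, *col-138* at 1288 and *col-93* at 1071 CPM per kb. The leader depended on the library. *col-166* was the highest member per kilobase in Control replicates 1 and 2 and in *smrd-1* null replicate 1, with 2878, 3484 and 1796 CPM per kb. *col-73* was highest in the other 5 libraries, with 1998 to 3033 CPM per kb.

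At the other end, 19 members were too low to be tested. None of them had more than 26 counts or 0.365 CPM in any library. *col-2*, a collagen of the dauer larva, the arrested form entered under crowding and starvation, was among them, with 2, 0, 1 and 8 counts in Control and 0, 11, 4 and 0 counts in *smrd-1* null. Here 3 counts correspond to 0.0371 to 0.0422 CPM, so *col-2* RNA was at or near the limit of detection in every library. The other 130 members passed the filter on low counts, and 116 of these had a mean level of at least 1 CPM.

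Collagens of the adult cuticle were present in every library. *col-19*, an adult collagen and a target of the transcription factor LIN-29 (chromosome X, 421707 to 422691), had 435, 228, 631 and 324 CPM in Control and 456, 543, 1545 and 1179 CPM in *smrd-1* null. *smrd-1* null replicates 3 and 4 stood above the other 6 libraries, and the lowest value was that of Control replicate 2. *col-7* and *col-62*, also adult collagens, are neighbors on chromosome I between 7401132 and 7404374. *col-7* had 76.2, 39.9, 58.0 and 40.4 CPM in Control and 57.5, 51.6, 107 and 95.5 CPM in *smrd-1* null. *col-62* had 60.5, 39.3, 51.0 and 37.02 CPM in Control and 48.2, 49.2, 92.7 and 79.3 CPM in *smrd-1* null. Both shared with *col-19* the high values in *smrd-1* null replicates 3 and 4, but in Control their highest library was replicate 1 rather than 3.

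To ask whether loss of *smrd-1* altered collagen expression, the labelled groups were compared over 4 against 4 libraries with edgeR. None of the 130 members tested passed an adjusted p of 0.05, against a background of 0.155% of all 16808 genes tested. The smallest adjusted p of a member was 0.489. An unadjusted p under 0.05 was found for 23 members, 17.7% of them against 7.74% of all genes, and all 23 were higher in *smrd-1* null, as were 3.9% of all genes. DESeq2 called 0 of the 149 members (background 0.992%; 2 members had no adjusted p), with a smallest adjusted p of 0.0543 and 26 members (17.4% against 7.38%) at an unadjusted p under 0.05. A block for the replicate number left the edgeR count at 0, with 37 members (28.5% against 23% of all genes) at p under 0.05 before adjustment and 0.0756 as the lowest adjusted p.

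The group of 23 rested on 4 libraries. Without *smrd-1* null replicate 3 there were 3 members with an unadjusted p under 0.05, without Control replicate 4 there were 5, without *smrd-1* null replicate 4 there were 6 and without Control replicate 2 there were 8. These were 2.29% to 6.15% of the members tested, against 4.39% to 6.66% of all genes in the same 4 comparisons. When any other library was left out the number was between 20 and 25. No member passed the adjusted threshold in any of these 8 comparisons.

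The differences were large but so was their error. The lowest log2 fold change of a member was -1.61 and the highest 2.03. In *smrd-1* null 73 members were higher and 57 lower, where 48.6% of all genes were higher, and the median was 0.09 against -0.01 for all genes. Their median size was 0.43 and the median standard error 0.42, compared with 0.19 and 0.22 over all genes tested.

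**Figure D1:**
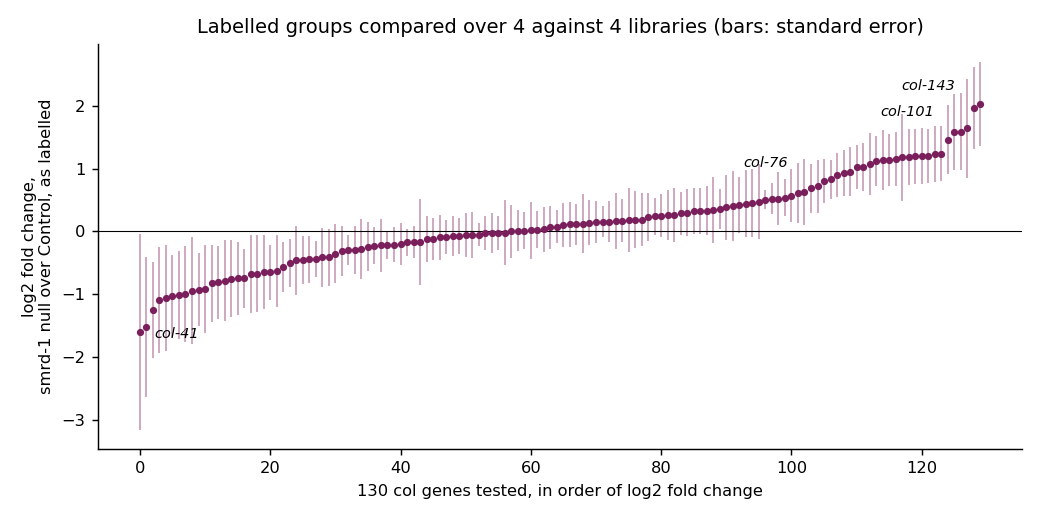
Log2 fold change of *smrd-1* null over Control, as labelled, for the 130 *col* genes tested with edgeR, in ascending order; bars are standard errors, from 4 libraries in each group. Values run from -1.61 (*col-41*) to 2.03 (*col-143*), with a standard error of 1.56 for *col-41*, 0.663 for *col-143* and 0.152 for *col-76*.

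The members with the highest fold changes included *col-143* and *col-101*. *col-143* (chromosome V, 6835635 to 6836704) had 42.0, 10.9, 93.1 and 38.4 CPM in Control and 76.9, 107, 336 and 234 CPM in *smrd-1* null, a log2 fold change of 2.03 (SE 0.663, adjusted p = 0.560, edgeR). *col-101* (chromosome IV, 325435 to 327020) had 35.2, 9.64, 70.0 and 32.4 CPM in Control and 55.5, 74.3, 263 and 180.4 CPM in *smrd-1* null (log2 fold change 1.96, SE 0.652, adjusted p = 0.568, edgeR). For both genes, Control replicate 3 lay above *smrd-1* null replicate 1 only, and the spread within the *smrd-1* null group was wide.

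*col-95*, *col-8* and *col-119* came next among members of at least 1 CPM. *col-8* (chromosome III, 7019583 to 7020600) had 130.3, 42.2, 240.2 and 118 CPM in Control and 154, 207, 682 and 549.7 CPM in *smrd-1* null. *col-119* (chromosome IV, 8978926 to 8979795) had 385, 156, 651 and 322 CPM in Control and 436, 557, 1807 and 1374 CPM in *smrd-1* null. *col-95*, a rare transcript, had at most 5.999 CPM in Control and between 4.10 and 18.8 CPM in *smrd-1* null. Their log2 fold changes were 1.59 for *col-95* and *col-8* and 1.46 for *col-119*, with adjusted p values of 0.607, 0.601 and 0.598 in edgeR. *col-19* itself had a log2 fold change of 1.20 (SE 0.446, adjusted p = 0.598, edgeR).

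The lowest fold changes belonged to *col-41*, *col-54*, *col-90*, *col-169* and *col-166*. *col-41* (chromosome X, 15175032 to 15176481) had 111, 378, 6.41 and 5.39 CPM in Control and 121, 37.7, 1.75 and 3.46 CPM in *smrd-1* null. The difference between the groups, a log2 fold change of -1.61 (SE 1.56, adjusted p = 0.753, edgeR), rested on Control replicate 2, without which it was 0.0011. *col-90* had 135, 429, 44.98 and 48.4 CPM in Control and 137, 59.5, 36.5 and 43.4 CPM in *smrd-1* null, and its highest value was again that of Control replicate 2. In all 5 genes, replicates 3 and 4 of both groups were below replicates 1 and 2 of the same group.

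Only 3 members, chosen after their values were seen, had groups that did not overlap, 2.31% of those tested against 5.2% of all genes. *col-76* had 18.1, 29.8, 21.7 and 23.8 CPM in Control and 37.4, 32.0, 30.1 and 32.7 CPM in *smrd-1* null (log2 fold change 0.50, SE 0.152). It had the smallest adjusted p of the members, 0.489 in edgeR, and differed little between replicate sets. *col-142*, a neighbor of *col-143*, had 227, 189, 140.1 and 74.6 CPM in Control and 237, 251, 353 and 279.7 CPM in *smrd-1* null. The third, *col-151*, did not exceed 0.534 CPM in any library and overlaps another gene on the opposite strand.

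Several members with known roles differed little or overlapped between the groups. *col-120*, a collagen studied in long-lived animals, had 75.4, 95.5, 143.5 and 129 CPM in Control and 84.1, 74.2, 237 and 241 CPM in *smrd-1* null (log2 fold change 0.52, SE 0.418, adjusted p = 0.725, edgeR). *col-99*, which encodes a collagen anchored in the cell membrane rather than a cuticle component, had 32.5, 36.8, 28.1 and 31.8 CPM in Control and 34.7, 34.02, 16.6 and 19.8 CPM in *smrd-1* null. It was lowest where *col-19* was highest, in *smrd-1* null replicates 3 and 4. *col-34* was among the steadiest members, with 58.7 to 66.9 CPM in Control and 44.6 to 84.0 CPM in *smrd-1* null (log2 fold change -0.05, SE 0.176).

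When the division into replicates 1-2 and 3-4 was entered as a covariate in edgeR, 4 members passed the adjusted threshold, 3.08% of the 130 against a background of 5.53% of all genes. *col-143* and *col-101* were higher in *smrd-1* null, as were 2.67% of all genes, by a log2 of 1.96 and 1.83 (adjusted p = 0.0410 and 0.0437, edgeR). *col-166* and *col-169* were lower, as were 2.86% of all genes, by log2 fold changes of -0.89 and -1.15 (adjusted p = 0.0293 and 0.00903, edgeR). Since the division came from the values of these libraries, these p-values are not independent of it.

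The members varied more across libraries than most genes did. Among the 116 members of at least 1 CPM the median fold between the highest and the lowest library was 4.09, and it exceeded 4 in 59 members, 50.9%. Over the 13932 genes tested at that level the median fold was 1.70, and 9.48% exceeded 4. The largest fold was 216, for *col-41*, and the smallest was 1.84. Control replicate 2 was the highest library for 42 of the 130 members (32.3% against 20.9% of all genes) and the lowest for 33, a share of 25.4% near the 22.2% of all genes. *smrd-1* null replicate 3 was the highest for 32, 24.6% against 23.3% of all genes. *smrd-1* null replicate 4 was the highest for 31 (23.8% against 9.56%) and the lowest for 0 (11.2% of all genes).

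**Figure D2:**
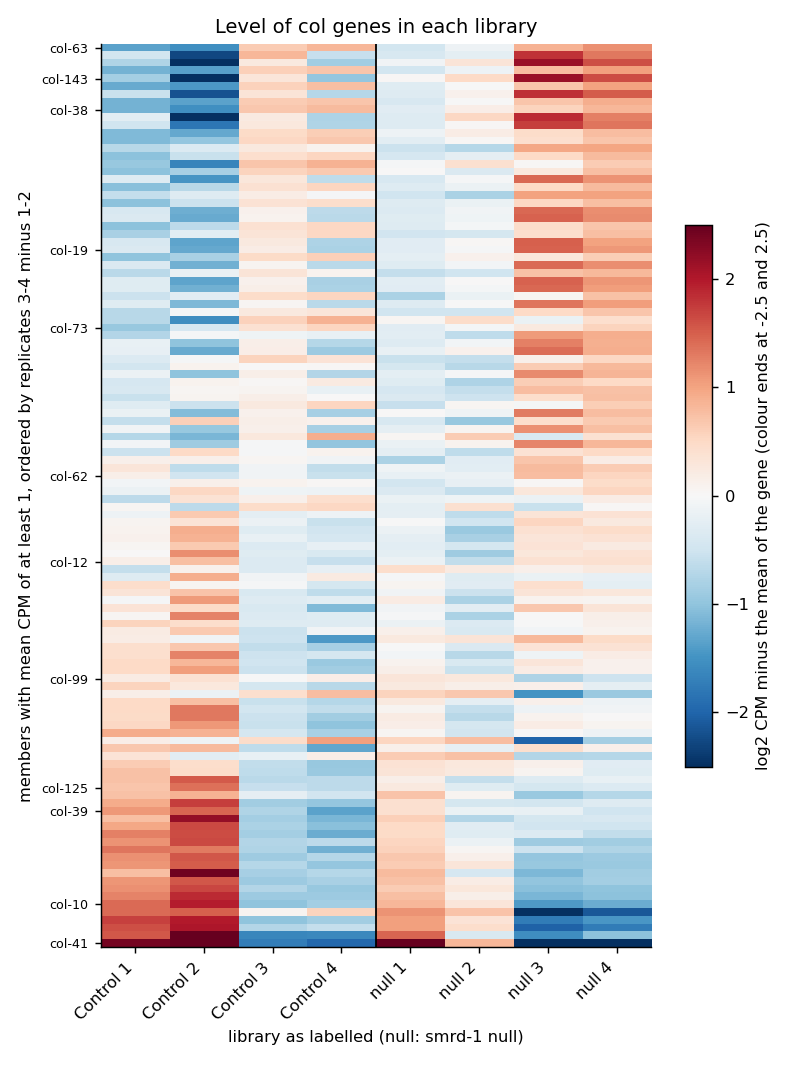
Log2 CPM of each of the 116 *col* genes with a mean of at least 1 CPM, minus the mean of that gene over the 8 libraries (color ends at -2.5 and 2.5), with genes ordered by the difference of replicates 3-4 and 1-2. At the bottom, replicates 1 and 2 are high and 3 and 4 low in both groups; at the top the reverse holds, with many genes highest in *smrd-1* null replicates 3 and 4; in the lower middle, Control replicate 2 is high.

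Replicates 3-4 were then compared with replicates 1-2 gene by gene, taking the mean log2 CPM over both labelled groups. The difference exceeded 1 in size in 47 members, 36.2% of those tested against 12.4% of all genes. It was above 1 in 26 members (20.0% against 9.21%) and below -1 in 21 members (16.2% against 3.2%). The median size was 0.84 in the members and 0.32 over all genes. By the strict order of libraries the members stood out less: in 23 members all 4 libraries of replicates 3-4 lay above all 4 of replicates 1-2 (17.7% against 16.3%), and in 23 they lay below (17.7% against 16.7%). Scaled by library size without TMM these counts were 28 (21.5% against 21.9% of all genes) and 18 (13.8% against 11.01%).

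Members lower in replicates 3-4 covered the largest differences. *col-41* had the lowest difference of all 16808 genes tested, -4.94 on the log2 scale, with -5.12 in Control and -4.76 in *smrd-1* null. Next came *col-54* at -2.90, whose level was 30.3, 92.4, 3.34 and 3.36 CPM in Control and 28.5, 7.95, 3.52 and 5.09 CPM in *smrd-1* null. *col-166* (chromosome X, 6280016 to 6280921) had 2607, 3156, 398 and 435 CPM in Control and 1627, 1011, 237 and 292 CPM in *smrd-1* null, a log2 difference of -2.54. In these genes no library of replicates 3-4 reached the level of any library of replicates 1-2.

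*col-10*, another collagen studied in long-lived animals (chromosome V, 9164292 to 9165307), followed the same course. It had 972, 1428, 183 and 204 CPM in Control and 652, 451, 138 and 155 CPM in *smrd-1* null, a log2 difference of -2.25. Its neighbor *col-144* had 1006, 1551, 227 and 229 CPM in Control and 716, 475, 194 and 211 CPM in *smrd-1* null. *col-169* had 792, 1060.2, 157 and 172 CPM in Control and 525, 351, 64.1 and 77.2 CPM in *smrd-1* null. *col-176* shared the direction but not the proportions. With 409, 428, 160.1 and 224 CPM in Control and 333, 251, 15.8 and 34.9 CPM in *smrd-1* null, its log2 difference was -1.14 in Control and -3.62 in *smrd-1* null.

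Members higher in replicates 3-4 were led by *col-63* at 1.74 on the log2 scale. *col-63* (chromosome I, 8243694 to 8244963) had 229.5, 202, 911 and 1036 CPM in Control and 422, 531, 1064 and 1285 CPM in *smrd-1* null. *col-49* had 168, 149, 579 and 619 CPM in Control and 277, 350.0, 653 and 779.7 CPM in *smrd-1* null. *col-138* (chromosome IV, 17182884 to 17183729) had 416, 371, 1467 and 1528 CPM in Control and 712, 937, 1527 and 1759 CPM in *smrd-1* null. In all 3 genes the step was wider in Control, where replicates 1-2 were lower than in *smrd-1* null, and replicates 3-4 of the groups lay close together. *col-73*, the highest member per kilobase, had 1044, 1516, 2620.3 and 2916 CPM in Control and 1650.0, 1958, 2398 and 2972 CPM in *smrd-1* null, a log2 difference of 0.85. *col-135*, at 1.24 to 21.6 CPM, completed the 5 highest together with *col-143* and *col-101*.

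**Figure D3:**
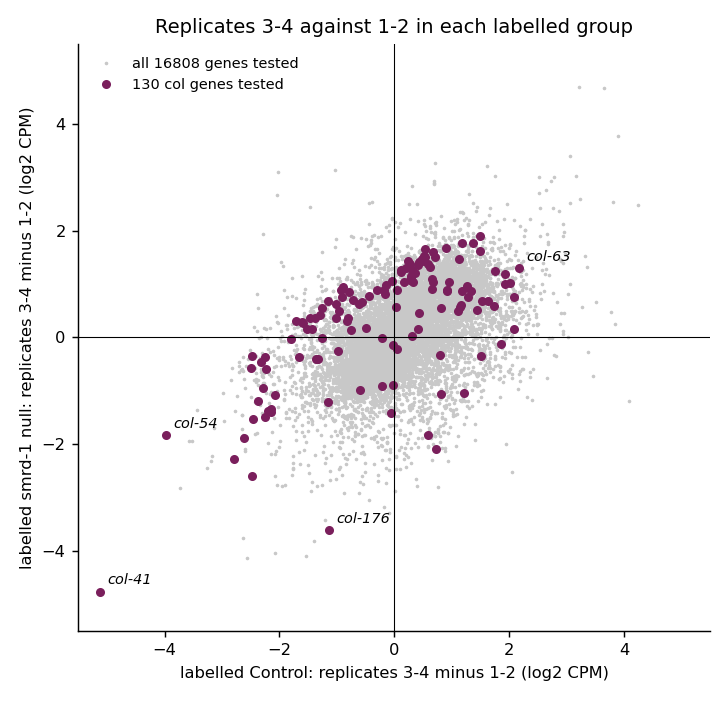
Log2 difference of replicates 3-4 and 1-2 in the libraries labelled Control (x axis) and *smrd-1* null (y axis), for all 16808 genes tested (gray) and the 130 *col* genes tested (purple). *col-41* lies at -5.12 and -4.76, and 30 *col* genes fall in the upper left quadrant, lower in replicates 3-4 in Control and higher in *smrd-1* null.

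The difference was not alike in the labelled groups. Its median over the members was 0.08 in Control and 0.60 in *smrd-1* null, where all genes had medians near 0. In 60 members replicates 3-4 were higher in both groups (46.2% against 36.8% of all genes) and in 32 they were lower in both (24.6% against 36.8%). A further 30 members, 23.1% against 12.8% of all genes, were lower in replicates 3-4 in Control and higher in *smrd-1* null. The reverse was seen in 8 members, 6.15% against 13.6%.

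The labelled groups were therefore also compared within each set of 2 against 2 libraries, as a description without a test. Within replicates 1-2, both *smrd-1* null libraries lay below both Control libraries in 51 members (39.2% against 25.9% of all genes) and above them in 42 (32.3% against 28.5%). Within replicates 3-4 they lay below in 20 members (15.4% against 31.2%) and above in 80 (61.5% against 30.7%). The median log2 fold change was -0.16 within replicates 1-2 and 0.44 within 3-4.

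As many as 37 members had *smrd-1* null below Control in replicates 1-2 and above it in replicates 3-4. They were 28.5% of the members tested, against 4.76% of all genes, and there were 37 of them as well without TMM. The reverse order occurred in 5 members (3.85% against 6.31%). The 37 had a median log2 fold change of -0.95 within replicates 1-2, from -1.76 to -0.23, and of 0.58 within replicates 3-4, from 0.23 to 1.22. Both orders were required of each of these genes, so the signs of these medians follow from the choice.

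*col-93* (chromosome III, 10984552 to 10985609), 1 of the 5 highest members per kilobase, had this order. Its level was 1275, 1399, 771 and 470.2 CPM in Control and 943, 843, 1612 and 1266 CPM in *smrd-1* null. *col-125* (chromosome IV, 11225506 to 11226516) had 1895, 3038, 781 and 744 CPM in Control and 1387, 945, 856 and 919.6 CPM in *smrd-1* null, with a much narrower gap in replicates 3-4. *col-12* and *col-13*, neighbors on chromosome V chosen after their values were seen, shared the order. *col-12* had 271, 414, 194 and 165 CPM in Control and 222, 161, 319 and 322 CPM in *smrd-1* null. Its group means, 261 ± 111 and 256 ± 78.7 CPM (SD, n = 4 each), were nearly equal, since the differences within the replicate sets had opposite signs.

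**Figure D4:**
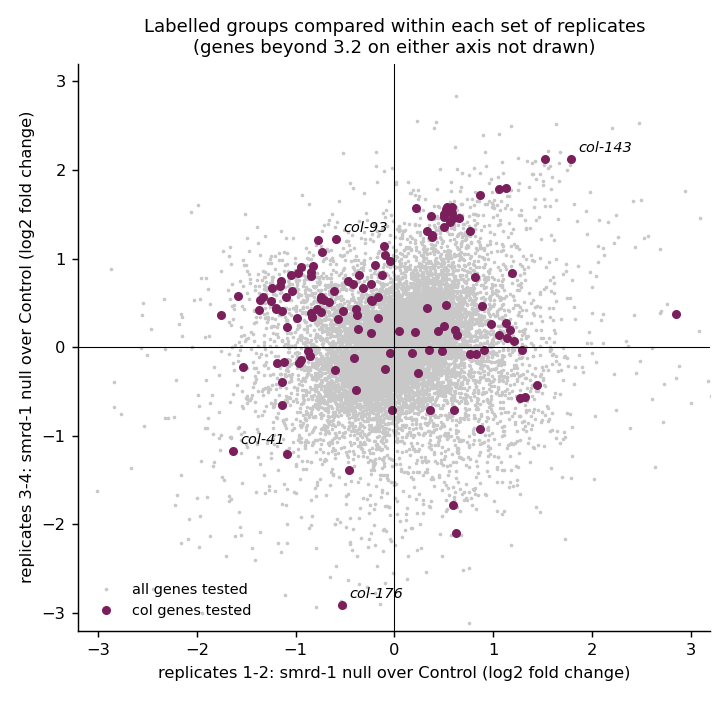
Log2 fold change of *smrd-1* null over Control within replicates 1-2 (x axis) and within replicates 3-4 (y axis), for all genes tested (gray) and the *col* genes tested (purple). Many *col* genes lie in the upper left quadrant, with medians of -0.16 on the x axis and 0.44 on the y axis; *col-143* is high on both axes and *col-176* is at -0.53 and -2.91.

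A smaller group had the same strict order of libraries in both sets. Both *smrd-1* null libraries lay above both Control libraries in each set in 21 members (16.2% against 12.6%). They lay below in each set in 9 (6.92% against 11.9%). The sign of the fold change alone is a looser measure. Among the 29 named members tested, it turned in 4 within replicates 1-2 and in 4 within replicates 3-4, compared with all 8 libraries. *col-143* was higher by a log2 of 1.79 within replicates 1-2 and 2.12 within replicates 3-4, and *col-101* by 1.52 and 2.12. *col-169* was lower within both, by log2 fold changes of -1.09 and -1.21, and *col-166* by -1.14 and -0.65. These are the 4 members called with the covariate. That fit favors genes whose difference is alike in both sets, so the shared sign follows in part from the choice.

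**Figure D5:**
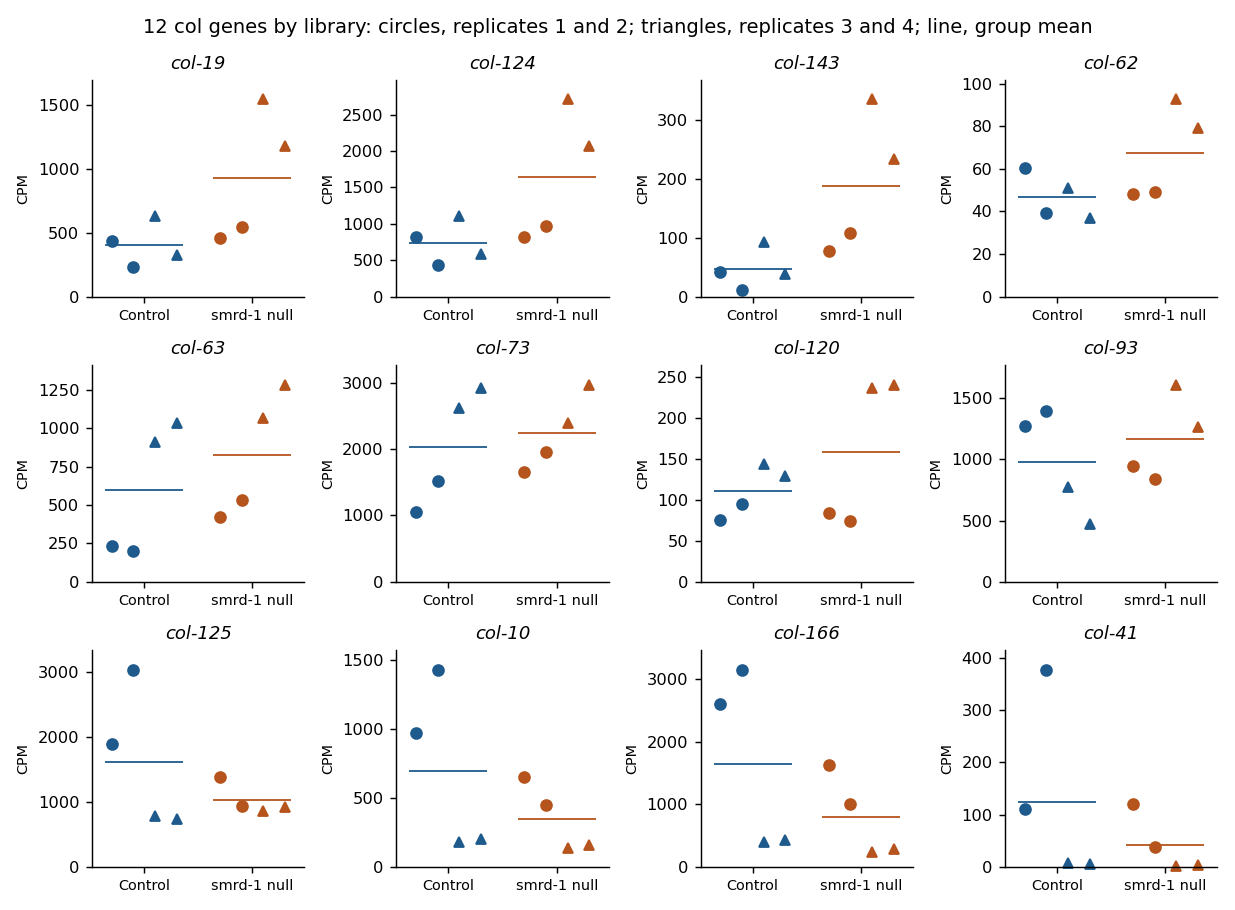
Level in CPM (y axis, from 0) of 12 *col* genes in each library, by labelled group; circles are replicates 1 and 2, triangles replicates 3 and 4, in that order from left to right, and the line is the mean of 4 libraries. *col-19*, *col-124* and *col-143* are highest in *smrd-1* null replicates 3 and 4, *col-63* and *col-73* are high in replicates 3 and 4 of both groups, and *col-10*, *col-166* and *col-41* are low there.

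The members varied in distinct patterns over the 8 libraries. Likeness was measured as Pearson's r of log2 CPM over the 8 libraries among the 116 members of at least 1 CPM, as a description; the libraries share their replicate sets, so r has no p. The members most like *col-19* were *col-124*, *col-178* and *col-20*, each with r = 0.999. *col-124* had 817, 438, 1106 and 583 CPM in Control and 825, 970.3, 2709 and 2071 CPM in *smrd-1* null. *col-178* had 316, 158, 424 and 222 CPM in Control and 324, 392, 1088 and 845 CPM in *smrd-1* null. *col-20* had 492, 261, 765 and 380.4 CPM in Control and 533, 663, 1824 and 1312 CPM in *smrd-1* null. In each, the order of the libraries was nearly that of *col-19*, with Control replicate 2 lowest and *smrd-1* null replicate 3 highest.

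An r of at least 0.9 with *col-19* was found for 21 members, *col-62* among them. These and *col-19* together summed to 7576, 4001, 10129 and 5421 CPM in Control and to 7638, 9212, 24504 and 18983 CPM in *smrd-1* null. The yolk protein genes had the same lowest and highest libraries. Of these 22 genes, 20 were among the 23 members with an unadjusted p under 0.05 in the comparison of the labelled groups. The lowest r with *col-19* was -0.924, for *col-99*.

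Another pattern was that of *col-10*, with 16 members at an r of at least 0.9, among them *col-41*, *col-144*, *col-166* and *col-169*. With *col-10* they summed to 12319.8, 17285, 3012 and 2967 CPM in Control and to 8429, 5520.3, 2799 and 2931 CPM in *smrd-1* null. All 17 were lower in replicates 3-4. That of *col-38* held 14 further members, including *col-63*, *col-73* and *col-138*. With *col-38* they summed to 4107, 4650.3, 12383 and 13599 CPM in Control and to 7034, 8681, 12398 and 15056 CPM in *smrd-1* null, and all 15 were higher in replicates 3-4.

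The last pattern was that of *col-12*, with 9 further members. Together they summed to 2579, 3791, 1669 and 1424 CPM in Control and to 2019, 1423, 2729 and 2743 CPM in *smrd-1* null, so that the highest library was Control replicate 2 and the lowest *smrd-1* null replicate 2 and Control replicate 4. *col-38* and *col-12* were chosen as reference genes after their values were seen.

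Neighboring members tended to vary alike. Runs were formed from members whose starts lay within 20000 bases of the next, which gave 21 runs with 51 members. In 17 runs at least 2 members had a mean of 1 CPM or more, and in 14 of these the members had 1 direction between replicate sets. Over the 32 pairs within runs the median r was 0.915, and 18 pairs (56.3%) exceeded 0.9. Over all 6670 pairs of members the median was 0.155 and 9.99% exceeded 0.9. Members of a run may share sequence and, where genes overlap, reads.

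The longest run was *col-167* to *col-171* on chromosome X (6323488 to 6335221). Its 4 members with enough counts had log2 differences of replicates 3-4 and 1-2 between -2.54 and -1.58 and pairwise r of at least 0.949, while *col-171* was too low to be tested. On chromosome V (9159586 to 9165307), *col-144*, *col-145* and *col-10* had differences between -2.25 and -1.31. On chromosome IV (8822962 to 8826013), *col-117* and *col-3* correlated at 0.999.

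Other neighbors did not. *col-79*, *col-39* and *col-80* lie between 10703613 and 10708287 on chromosome II, and their pairwise r went as low as -0.958. *col-39* had 759, 982, 211 and 140.4 CPM in Control and 470.3, 317, 311 and 252 CPM in *smrd-1* null. *col-80* had 539, 306, 552 and 285 CPM in Control and 505, 596, 1319 and 999 CPM in *smrd-1* null. *col-39* was thus highest in the libraries in which *col-10* was highest, and *col-80* in those in which *col-19* was. *col-17*, *col-20* and *col-73* on chromosome II (4866436 to 4873129) also differed, with r down to -0.229.

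The other cuticle collagens, 22 genes named for dumpy, roller, squat, blister and related shapes, were all tested. None passed the adjusted threshold between the labelled groups in edgeR, and 1 had an unadjusted p under 0.05, beside 7.74% of all genes. DESeq2 called 1 of them, where 0.992% of all genes were called. Their median log2 fold change was 0.06. Within replicate sets, 13 of the 22 had the reverse of the order seen in 37 *col* genes. In these 13, *smrd-1* null was above Control in replicates 1-2 and below it in replicates 3-4. That order was found in 3.85% of the *col* genes tested and in 6.31% of all genes. The median log2 fold change of the 22 was 0.79 within replicates 1-2 and -0.46 within replicates 3-4. *dpy-7*, 1 of 6 furrow collagens, which mark the ring-shaped grooves of the cuticle, had 183, 143.1, 209 and 287 CPM in Control and 233, 265, 55.9 and 97.6 CPM in *smrd-1* null. It was lowest in *smrd-1* null replicates 3 and 4, where *col-19* was highest. *dpy-17* had at most 2.27 CPM in Control and between 2.86 and 3.72 CPM in *smrd-1* null. It was the 1 gene of the 22 called with the covariate, where 5.53% of all genes were called (log2 fold change 1.08, adjusted p = 0.0306, edgeR). The covariate came from the values of these libraries, so this p-value is not independent of it.

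A list of 14 genes of collagen processing held mostly enzymes and chaperones that hydroxylate, fold, cut or cross-link collagen. These 14 genes had 0 calls between the labelled groups in edgeR and in DESeq2, and 0 at an unadjusted p under 0.05. Their median log2 fold change was -0.06. *pdi-2*, which encodes a protein disulfide isomerase that is also a subunit of prolyl hydroxylase, had 2929, 2491, 2498 and 2829 CPM in Control and 3028, 3422, 1549 and 1948 CPM in *smrd-1* null. Its lowest libraries were those in which the furrow collagens were lowest. The 4 collagen genes of basement membranes and touch neurons likewise had 0 calls without a covariate in edgeR. With the covariate 1 of the 4, *mec-5*, was lower in *smrd-1* null, again beside 2.86% of all genes (log2 fold change -0.31, adjusted p = 0.0228, edgeR). That p-value is likewise not independent of the division into replicate sets.

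Of 15 regulators of the epidermis and of developmental timing, 0 were called between the labelled groups in edgeR and in DESeq2, and 0 had an unadjusted p under 0.05. With the covariate, 4 of the 15 were lower in *smrd-1* null in edgeR, as were 2.86% of all genes. These were *elt-3*, a GATA factor of the epidermis, *lin-14* and *hbl-1*, which act in early larval timing, and *myrf-2*, a membrane-bound transcription factor. Their log2 fold changes were -0.29, -0.41, -0.54 and -0.40, with adjusted p values of 0.0318, 0.0173, 0.0406 and 0.0295 in edgeR. The covariate came from the values of these libraries, so these p-values are not independent of it. *lin-29*, the activator of *col-19*, had 62.3, 59.7, 55.2 and 68.9 CPM in Control and 64.9, 67.6, 28.0 and 38.7 CPM in *smrd-1* null. Its lowest values were in *smrd-1* null replicates 3 and 4, the libraries with the highest level of *col-19*. This was not particular to *lin-29*, but not all of the 15 regulators shared it. The 15 regulators, *lin-29* among them, summed to 779 and 898 CPM in these libraries and to between 1145 and 1352 CPM in the others. For *lin-42*, *grh-1*, *lin-26* and *elt-1*, however, *smrd-1* null replicate 4 lay above Control replicate 1. *lin-28* and *lin-41* went the other way and were highest in *smrd-1* null replicate 3.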

How the data were processed

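Per the labels and the paper's methods, the authors sequenced polyadenylated RNA of whole animals as 150 bp paired-end reads, used STAR 2.7.11b for alignment (WBcel235) and featureCounts 2.0.1 for counting. The counts of the deposited table are raw, with 1 value for each gene in each library. Its header shows no option for read pairs, strand or multiple mapping and names annotation release 112, where the paper names 113. Gene positions came from release 115, whose bounds for all 149 members equal those of the count table. The authors also deposited a table of their own DESeq2 comparison (mean counts, log2 fold changes, standard errors, test statistics and p-values); only its gene names were read here.

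Counts were normalized by TMM and filtered by group in edgeR 4.0.16 (R 4.3.3), and 4 Control were compared with 4 smrd1Null libraries by the quasi-likelihood test without covariates, with Benjamini-Hochberg adjustment over the 16808 genes that passed the filter, at an adjusted p of 0.05. Differences between replicate sets used log2 CPM with a prior count of 2. Alternatives were DESeq2 1.42.0 (independent filtering on or off), its size factors within edgeR, other filters, the replicate number as a block, the replicate sets as a covariate, each library left out, and, chosen after seeing the data, orders of libraries without TMM. Tables and figures were made with Python 3.11.15, pandas 2.3.3, numpy 2.4.6 and matplotlib 3.10.9. The fit without covariates was tested on simulated counts. These had the same dispersion (spread between libraries) for every gene and no replicate sets, so that test does not cover the differences between replicate sets seen here.

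Both groups have replicates numbered 1 to 4. Deviations from the group means of samples with the same number correlated at 0.221 to 0.489 in the 4 pairs, all over 0.1, and the block is therefore reported. Different numbers of the same replicate set correlated as highly (mean 0.375, against 0.364 for the same number) and those of different sets at a mean of -0.368, so these values show the replicate sets and do not separate pairing by number from them. No label describes a pairing.

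Total counts of 74704022 to 78008833 per library put 3 counts at 0.0371 to 0.0422 CPM, and mates of a pair were counted singly, so such floors cover counting error only. The members and gene lists were chosen with earlier results of these data known. The 30 members named by rule were those with a known role, the 5 highest per kilobase, the 5 highest and 5 lowest by fold change and by difference between replicate sets among members of at least 1 CPM, and the 3 most like *col-19*. Other members named were chosen after their values were seen. No sequences were used.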

Additional observations from a re-analysis of the deposited data

Results flagged for a closer look

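*col-125* stood apart in 1 library. In *smrd-1* null replicate 1 it had 1387 CPM, while the other 3 libraries of that group lay between 856 and 945 CPM. The gap was 0.834 of the range of the group, above the 95% critical value of Dixon's test for 4 samples. In all, 58 groups of 4 libraries were checked in this way, and chance marks about 1 group in 20.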

How the results depend on the processing

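The count of 0 *col* genes called was the same under DESeq2 (independent filtering on or off), its size factors within edgeR, both other filters, the replicate block and each library left out, and was 4 with the replicate sets as a covariate. Over all genes, 26 calls without a covariate became 251 with DESeq2, 226 with its independent filtering off, 929 with the covariate and 7 to 14 when 1 library was left out. With the replicate block 26 genes were called, and it changed no other call of a member or list. Among the other lists, the other cuticle collagens had 0 calls without a covariate, 1 with DESeq2 in either form and 1 with the covariate; basement membrane collagens had 1 and the regulators 4 with the covariate.

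The median log2 fold change of the members, 0.09, was -0.03 to 0.16 when 1 library was left out and 0.43 in replicates 3-4 alone, over the members that passed the filter there. The median difference of replicates 3-4 and 1-2, 0.29, was 0.20 to 0.33 when 1 library was left out and 0.60 in *smrd-1* null alone. Among named members, leaving out 1 library gave log2 fold changes of -0.25 to 0.074 for *col-34* (above 0 without *smrd-1* null replicate 1 or 2), -0.067 to 0.38 for *col-73* (below 0 without Control replicate 1 or *smrd-1* null replicate 4) and -3.13 to 0.0011 for *col-41* (above 0 without Control replicate 2). Signs also turned in replicates 1-2 alone for *col-120* (-0.12), *col-62* (-0.045), *col-7* (-0.10) and *col-93* (-0.59), and in replicates 3-4 alone for *col-125* (0.23), *col-34* (0.21), *col-54* (0.37) and *col-73* (-0.038). None of these values was called, and the cause was not tested. Counting error is widest for the 19 members not tested and for tested members of few counts.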
